A study of Mus musculus with 2 samples.

Results

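Deep intragenic peaks of the histone mark H3R17me2a were examined in mouse heart. A member was a peak under 2000 bp wide on chromosomes 1 to 19 that both deposited peak lists share (at least 1 bp of overlap), with its midpoint inside the span of a protein-coding gene and over 5000 bp from every end of a protein-coding gene. The gene around it, its host, also had to carry a peak of both lists within 1000 bp of 1 of its ends. Members were chosen by the presence and position of peaks in both lists and by peak width, and no fold or p entered beyond the authors' own calls. The rule chose 4722 of 20226 shared peaks of that width (23.3%; 95% exact binomial interval 22.8 to 23.9%, which covers counting error only), and they lay in 1361 host genes, 22.3% of the 6113 genes over 10000 bp with such an end. What chose them is no result here. Fold enrichment, reads, internal transcript starts and the kinds of host gene were not used by the rule. Placement along the gene was used only through the distance from gene ends. That limit of 5000 bp also bounds the distances and the internal starts given below.

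Chromatin immunoprecipitation followed by sequencing (ChIP-seq) was run on 2 samples of wild-type heart at 21 days after birth, with no treatment, no other genotype and no control group. Both samples form 1 group. The labels do not say whether they came from separate animals, 1 label names cardiac fibroblasts where the tissue label names heart, and the titles carry the name carm1 while the genotype label is wild type. Of 12 cardiomyocyte marker genes, 11 had a peak of both lists at an end, against 2 of 14 fibroblast, 1 of 13 endothelial, 1 of 10 mural, 1 of 11 immune and 2 of 14 neuronal markers. Over all 20665 protein-coding genes on chromosomes 1 to 19, 8282 had such a peak. The rule used these end peaks, so the marker counts are a description. In 80.5% of the shared peaks with the same summit base the reads recovered from the lists differed by no more than 2 (6700 of 8322), so the samples were counted as 1, no test between samples was made, and the lists stand for 2 peak calls.

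H3R17me2a is histone H3 that carries asymmetric dimethylation at a tail arginine. Carm1 deposits the mark, recruited to chromatin by transcription factors and their coactivators, and it is known from promoters and enhancers of active genes. Enhancers often lie in introns of the gene they act on, and many long genes also hold further transcript starts inside their span. In bulk tissue, a mark in fewer cells and less of the mark per cell cannot be told apart.

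Some members lay on such internal starts, and the DNA just before these starts is shown because it is the only sequence under the members that was used here. RefSeq start records on the GRCm38.p6 build (the same primary chromosome coordinates as mm10) gave 647 starts inside end-marked genes and over 5000 bp from every gene end. Of these, 143 (22.1%; 95% exact interval 18.96 to 25.5%) lay within a member. Genes without a mark at an end had 1406 such starts, of which 207 (14.7%; 12.9 to 16.7%) lay within a shared peak. Only a small part of the members was placed this way: 131 of 4722 (2.77%; 2.32 to 3.28%) held such a start, in 126 hosts, against 187 of 2119 deep shared peaks (8.82%; 7.65 to 10.1%) in genes not marked at an end. Per start the share was thus higher in end-marked genes, and per peak it was lower. Of the members, 57 covered the whole 300 bp window of a start. Start records were used for the chromosomes that hold 94.2% of the members. By gene the cover was lower, with a record for 1073 of the 1361 hosts (78.8%). Placements in genes with a record numbered 3556 for members and 1760 for deep peaks of genes not marked at an end. Peaks in genes without a record could not be scored on a start of that gene, so the shares per peak may be too low.

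The 250 bases before the start are given 5′ to 3′ for the 6 hosts whose covering member ranked highest by the sum of its fold ranks in both lists, a choice made after the values were seen. Capitals mark matches on either strand to any of 7 motifs searched: the TATA box TATAAA, the CCAAT box, the GC box GGGCGG, the site AAGGTCA of oestrogen-related receptors, the GATA factor site AGATAA, the E-box CACGTG, and the cyclic AMP response element TGACGTCA. Slc25a25 (chr2:32424067-32424316, minus strand) encodes a mitochondrial carrier of ATP-Mg and phosphate, and Creb5 (chr6:53573124-53573373, plus) a factor that binds cyclic AMP response elements. Retreg1 (chr15:25933302-25933551, plus) encodes a receptor for autophagy of the endoplasmic reticulum, and Speg (chr1:75381864-75382113, plus) a kinase of striated muscle. Mitf (chr6:97929567-97929816, plus) encodes a transcription factor with many alternative promoters, and Fblim1 (chr4:141599999-141600248, minus) a filamin-binding LIM protein.
Slc25a25: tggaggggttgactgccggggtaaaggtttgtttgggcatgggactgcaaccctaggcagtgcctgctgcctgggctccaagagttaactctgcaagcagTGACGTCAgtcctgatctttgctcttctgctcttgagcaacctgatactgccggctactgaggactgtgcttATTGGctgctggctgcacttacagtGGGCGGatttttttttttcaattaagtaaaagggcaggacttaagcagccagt
Creb5: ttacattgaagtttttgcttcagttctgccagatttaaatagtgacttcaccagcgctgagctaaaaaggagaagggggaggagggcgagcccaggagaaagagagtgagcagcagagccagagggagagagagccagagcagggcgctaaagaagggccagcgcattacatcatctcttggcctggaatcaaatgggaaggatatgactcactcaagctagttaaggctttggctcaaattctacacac
Retreg1: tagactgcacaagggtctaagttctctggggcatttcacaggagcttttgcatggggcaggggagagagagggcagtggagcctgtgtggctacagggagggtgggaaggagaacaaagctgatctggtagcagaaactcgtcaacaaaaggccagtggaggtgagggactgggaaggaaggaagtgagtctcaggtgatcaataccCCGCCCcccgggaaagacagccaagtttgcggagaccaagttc
Speg: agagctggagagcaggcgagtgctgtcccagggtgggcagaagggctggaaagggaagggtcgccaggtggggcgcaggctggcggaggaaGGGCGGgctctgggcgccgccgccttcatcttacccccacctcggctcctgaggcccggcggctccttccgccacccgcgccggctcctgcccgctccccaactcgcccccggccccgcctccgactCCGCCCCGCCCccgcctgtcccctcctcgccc
Mitf: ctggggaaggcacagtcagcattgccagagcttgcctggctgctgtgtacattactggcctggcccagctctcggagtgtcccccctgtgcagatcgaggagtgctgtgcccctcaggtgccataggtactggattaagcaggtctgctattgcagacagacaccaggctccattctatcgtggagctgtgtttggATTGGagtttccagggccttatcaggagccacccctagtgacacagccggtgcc
Fblim1: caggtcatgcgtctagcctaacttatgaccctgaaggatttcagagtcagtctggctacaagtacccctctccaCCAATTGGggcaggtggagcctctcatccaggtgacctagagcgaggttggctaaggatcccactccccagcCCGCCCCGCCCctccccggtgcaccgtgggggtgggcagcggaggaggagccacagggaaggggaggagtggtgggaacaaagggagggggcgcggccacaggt

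The Slc25a25 window held TGACGTCA starting 150 bases before the start, a CCAAT match on the reverse strand at 78 and GGGCGG at 53. Among all 32851 start windows of 300 bp, TGACGTCA occurred in 1.79%, CCAAT in 37.4% and GGGCGG in 35.7%, on either strand. Retreg1 had 1 GGGCGG match, on the reverse strand at 43. Speg had 1 forward match at 159 and 2 reverse matches that overlap at 32 and 27. Mitf had a reverse CCAAT at 54. Fblim1 had CCAAT at 176 on the forward and 173 on the reverse strand, sharing bases, and GGGCGG on the reverse strand at 104 and 99. None of the 7 motifs was in the 250 bases of Creb5. A match describes letters only.

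The members over these windows had fold enrichments, the authors' ratio of ChIP to background signal at a peak's summit, of 14.3 in list 1 and 11.01 in list 2 at Slc25a25, and 9.003 and 16.7 at Creb5. Retreg1 had 9.30 and 7.36, Speg 8.35 and 6.50, Mitf 7.35 and 6.83, and Fblim1 7.60 and 5.97. All 6 were above the median of the members in both lists, which follows from their choice by fold rank. As a set, the members on internal starts had lower folds and were wider: their median fold was 4.18 in list 1 and 3.89 in list 2 (n = 131), against 5.63 and 4.46 for the other 4591, and their median list 1 width was 685 bp against 431 bp. A wider peak is more likely to hold a start, so the difference in width is a description only. Internal starts with a member were richer in CpG than those without a peak. The median GC content was 59.3% in the 143 windows inside members, 50.3% in 503 windows of end-marked genes without a peak and 65.7% at the 1075 starts near an end of a host. A CpG ratio (observed over that expected from base content) above 0.6 was found in 56.6%, 14.5% and 83.1% of these windows. At the 86 starts near an end of the same hosts as the 143 windows, the median GC content was 65.0%. Of those 86 windows, 69.8% had a CpG ratio above 0.6.

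Among covered internal starts named after their values were seen were several of genes known in heart muscle. At Rcan1, whose internal promoter answers to calcineurin and NFAT signalling, the member (chr16:92398370-92400340) had folds of 5.86 and 5.15, and the 250 bases before that start held TGACGTCA at 175. The start of Ppargc1a at base 51567725 of chromosome 5 lies 113476 bp from the nearest end of the annotated gene, and its member had folds of 5.34 and 4.21. Acsl1, which activates long-chain fatty acids, had 4.002 and 8.78, Pfkm, muscle phosphofructokinase, 4.98 and 3.48, and Kcnh2, a potassium channel of repolarisation, 4.33 and 3.76. At Vegfa, the endothelial growth factor gene, the member ranked near the bottom, with 2.70 and 2.33.

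A further member covered a heart microRNA. The gene Mir499 sits inside Myh7b, a myosin heavy chain gene (chromosome 2, 155611243 to 155634307), and the only member of that host (chr2:155622870-155623435) spanned its hairpin (155622880 to 155622958) with folds of 8.003 and 4.89. The strongest end peak of Myh7b had 5.23 and 4.58. The mature miRNAs from RefSeq are shown with the seed, bases 2 to 8, in capitals.
mmu-miR-499-5p: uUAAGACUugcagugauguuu
mmu-miR-499-3p: gAACAUCAcagcaagucugugcu

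Members overlapped a miRNA gene in 6 cases in all, the others being Mir8100 in Adam19, Mir7117 in Ank, Mir1893 in Epc1, Mir1960 in Hadhb and Mir7212 in Retreg1. The member at Mir7117 had the highest folds of those with a recorded mature sequence, 11.03 and 8.54, and Ank, its host, encodes a transporter of pyrophosphate.

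Deep peaks were more frequent in genes marked at an end than in genes not so marked, and more frequent in longer genes. Of 6113 end-marked genes over 10000 bp, the length needed to hold a member, 1361 were hosts (22.3%; 95% exact interval 21.2 to 23.3%). Of 7209 genes of that length without a mark at an end, 912 held a deep shared peak (12.7%; 11.9 to 13.4%). List 2 alone, which reaches weaker peaks, gave 11331 members in 2589 hosts, or 35.7% of the end-marked genes. From 10 to 20 kb the shares were 5.76% and 2.57%, from 40 to 80 kb 25.5% and 16.9%, and above 320 kb 66.2% and 32.5%. The marked genes had the higher share in each of the 6 length bins. The presence of these peaks is what the rule used, so these shares are a description. Hosts had a median length of 74.6 kb, against 32.8 kb for all end-marked genes over 10000 bp, so counts for a group of genes are read beside their length.

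**Figure D1:**
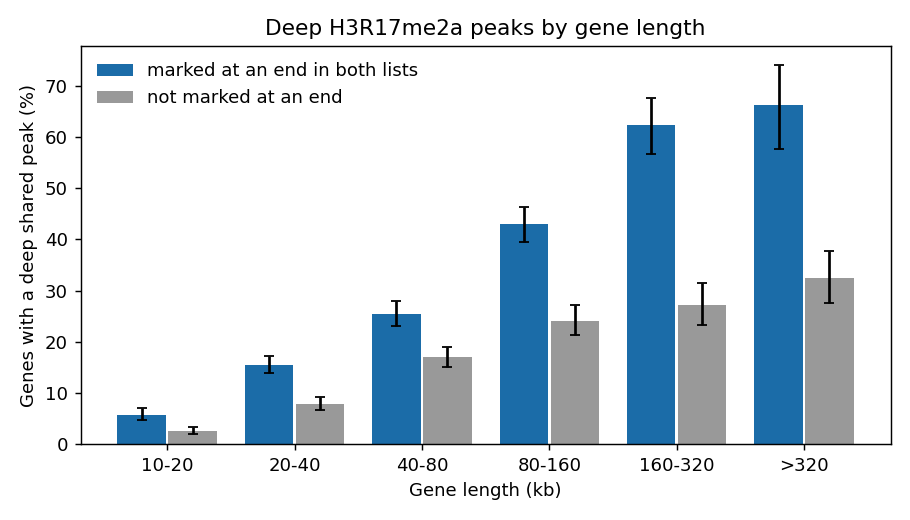
Share of genes that hold a deep shared peak (y axis, %) by gene length in kb (x axis), for genes marked at an end in both lists (blue) and genes not so marked (grey). Error bars are 95% exact binomial intervals over genes, and the blue bars rise from 5.76% to 66.2%, the grey ones from 2.57% to 32.5%.

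Members were spread unevenly over hosts. A single member was found in 635 hosts (46.7%), 2 or 3 in 396 (29.1%) and 4 or more in 330 (24.2%). The 93 hosts with 10 or more members (6.83%) held 39.4% of all members. Many members lay near another: 39.2% had another member within 2000 bp and 69.3% within 10000 bp, midpoint to midpoint. Such distances were not taken for other shared peaks, so these shares are not read as particular to members. The 4722 members of list 1 met 4405 distinct list 2 peaks, so some neighbouring members were 1 peak in list 2.

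Muscle genes led by number of members. Ttn, the giant spring protein of the sarcomere (chromosome 2, 76703980 to 76982557), had 122 members, or 43.8 per 100 kb, where the median host had 2.91 per 100 kb. Its members covered 24.9% of the gene, met 108 list 2 peaks, and ranged in fold from 2.60 through a median of 5.16 to 11.3 in list 1 and from 1.91 through 3.46 to 9.04 in list 2. They were found along the whole gene, with no gap between midpoints above 16414 bp. Cacna1c, the pore subunit of the cardiac L-type calcium channel (chromosome 6, 118587240 to 119197384), had 102 members with list 1 folds of 2.60 to 16.7 and list 2 folds of 2.41 to 17.6. In Cacna1c they left a gap of 122845 bp.

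Of the next hosts, Rbm20 controls the splicing of titin, and Tns1 and Ablim1 encode proteins of focal adhesions and the actin cytoskeleton. Tns1 (chromosome 1, 73910232 to 74124548) had 65 members with a median fold of 5.47 in list 1 and 4.04 in list 2, and Rbm20 (chromosome 19, 53660989 to 53867083) 61 with 5.13 and 4.65. Ablim1 (chromosome 19, 57032733 to 57315344) had 56 with 5.60 and 4.21. Zbtb16, a zinc finger repressor gene (chromosome 9, 48651797 to 48836225), had 40 with 5.37 and 4.32, and Rbpms, which encodes a regulator of muscle splicing (chromosome 8, 33782643 to 33929922), had 38 with 5.69 and 4.08. Between these hosts the median fold of the members ran from 5.13 to 5.69 in list 1, while their number differed from 38 to 122. In list 2 the median fold ran from 3.46 in Ttn, the host with most members, to 4.65 in Rbm20. Ttn, Tns1, Rbm20 and Ablim1 were marked at both ends, as were 9.63% of all hosts and 4.23% of the 4752 end-marked genes over 10000 bp without a member.

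**Figure D2:**
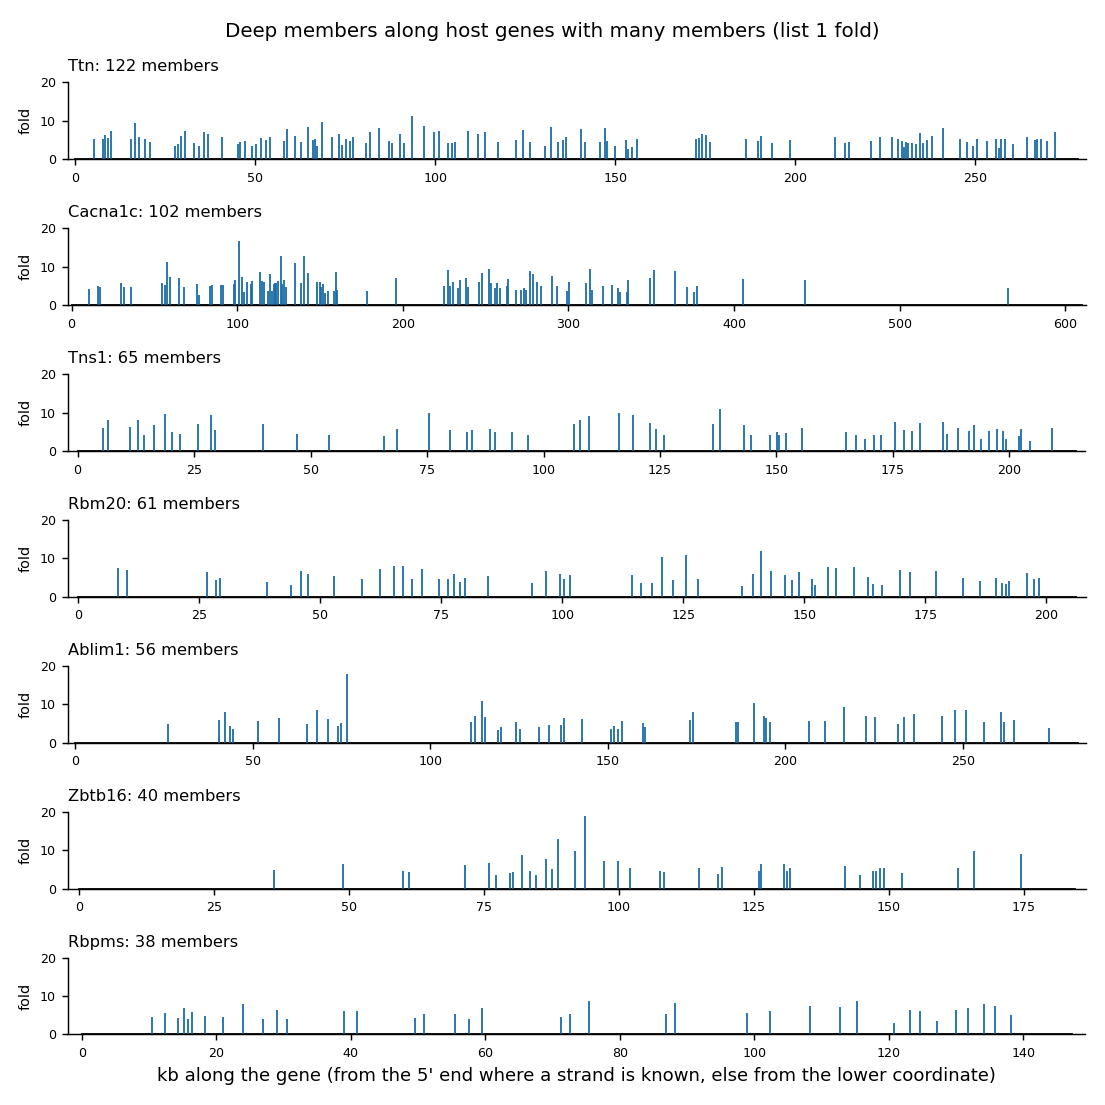
Position of each member (x axis, kb along the gene) and its list 1 fold (y axis) in the hosts named above for their number of members; every vertical line is 1 member, and the horizontal line is the gene. The lines run through Ttn with no gap above 16414 bp, while Cacna1c has a stretch of 122845 bp without a member.

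The strongest single members lay in genes of many kinds. By summed fold rank the first was in Homer1, a scaffold of calcium signalling complexes (chr13:93399608-93400583), with folds of 27.4 in list 1 and 20.4 in list 2, just inside the distance limit at 5034 bp from a gene end. Zfp608, a zinc finger gene, followed with 22.7 and 20.6, and Cyrib, which encodes an inhibitor of Rac1 signalling, with 26.4 and 16.9 from 52 and 53 recovered reads. Auh, an enzyme of leucine breakdown (chr13:52892059-52893625), had 26.9 and 16.2 from 60 and 62 reads, and Hadh, an enzyme of fatty acid oxidation (chr3:131245999-131247231), 23.4 and 15.6 from 46 and 49 reads. Baiap2l1, an adaptor of actin and membrane (chr5:144289937-144290663), stood on more reads, 110 and 115, with folds of 15.9 and 24.0. The others of the first 12 were in Zfp827, Ints4, Stk39, Eml6, Agtpbp1 and Slco3a1, with list 1 folds of 16.4 to 25.4 and list 2 folds of 15.0 to 17.1. None of the hosts named for their number of members held 1 of these 12.

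Folds of the members were higher than those at gene ends, but their reads were fewer. The median fold was 5.55 in list 1 and 4.46 in list 2 for members (n = 4722), against 4.001 and 3.68 for the 7411 shared peaks within 1000 bp of a gene end. The reads recovered at the summit went the other way. Members had a median of 17 reads in list 1 and 19 in list 2, and gene-end peaks 50 and 52. The list 1 interquartile ranges were 12 to 27 and 27 to 92 reads. The recovered background at the summit had a median of 2.00 reads in list 1 at members and 11 at gene ends (2.87 and 12.9 in list 2, on the scale of its ChIP reads). The fold divides by that background, and its part in the order of the folds was not tested. Deep shared peaks in genes not marked at an end (n = 2119) were close to the members in all of these: median folds of 5.47 and 4.52, 19 and 20 reads, and a background of 2.00 and 3.23. Folds above 10 were found in 7.41% of members in list 1 and 5.57% in list 2, against 8.26% and 5.95% of those peaks.

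**Figure D3:**
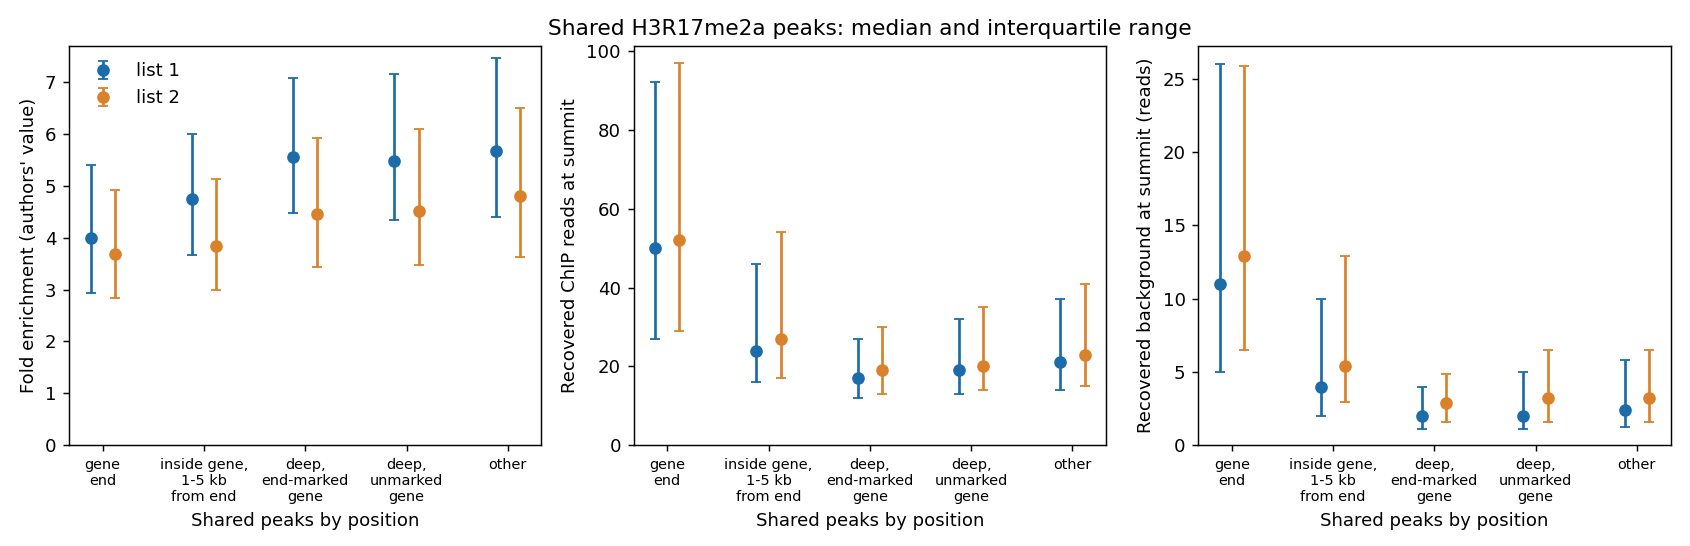
Median (points) and interquartile range (bars) of the authors' fold, the recovered ChIP reads and the recovered background at the summit (y axes) for shared peaks by position (x axis), in list 1 (blue) and list 2 (orange). Members, "deep, end-marked gene", have higher folds (5.55 and 4.46) than gene-end peaks (4.001 and 3.68) and fewer reads (17 and 19 against 50 and 52).

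Within a gene the same opposite order was seen. The end peaks of hosts could be of any width here, while members and the gene-end peaks above were under 2000 bp. In the 635 hosts with 1 member, which need no choice among members, the median fold was 5.73 at the member and 4.002 at the strongest end peak in list 1, and 4.73 and 3.63 in list 2. The member had the higher fold in both lists in 365 of them (57.5%) and the lower in both in 113 (17.8%). By reads, the member was lower in 82.1% of 624 such hosts in list 1 and 81.9% of 613 in list 2, with medians of 18 against 51 and 19 against 58 reads. The single member was below the end peak by fold in 28.3% of these hosts in list 1 and 32.0% in list 2. Over all hosts, the median member was below it in 27.6% and 32.4%, and the strongest member, a maximum over up to 122, in 19.5% and 23.3%. Ranked by the lower of the ratios of member to end peak in both lists, the first 3 hosts were Agtpbp1, which encodes an enzyme trimming glutamates from tubulin (16.4 and 17.1 against 1.81 and 2.51 at the end), Auh (26.9 and 16.2 against 3.27 and 2.52) and Tnrc6b, a gene of miRNA silencing (12.8 and 14.5 against 1.39 and 2.58). By reads the end peak of Tnrc6b was far above its member, with 397 and 387 against 76 and 92, while in Auh the member was above, with 60 and 62 against 35 and 35. The end peaks of hosts had median folds of 4.21 and 3.68, and those of the other end-marked genes over 10000 bp 4.09 and 3.83, so their order differed between the lists.

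**Figure D4:**
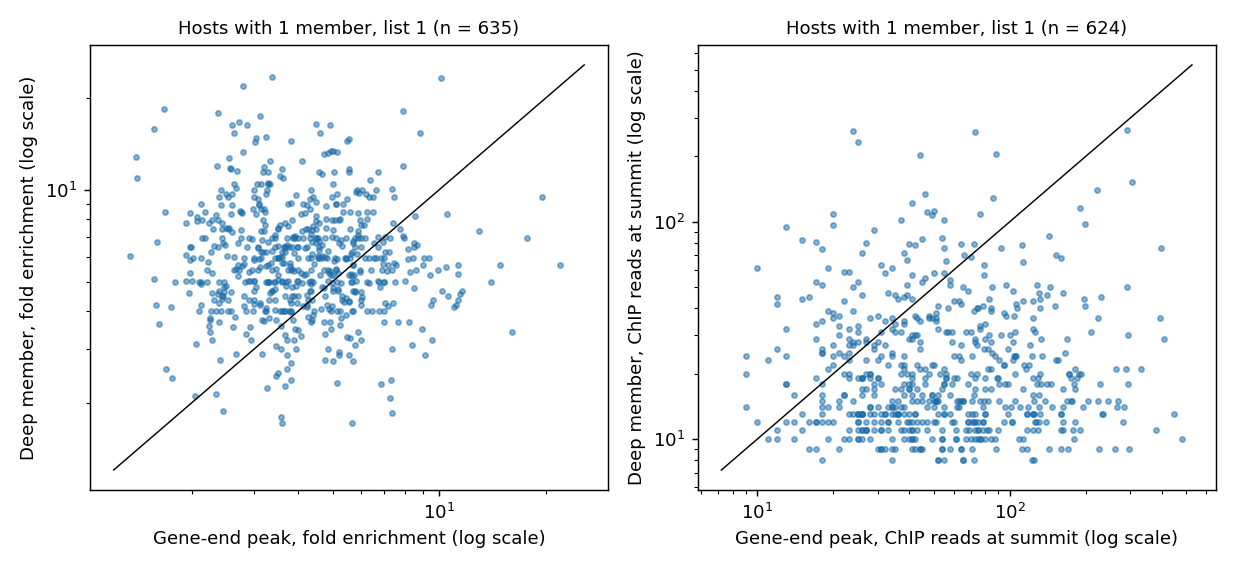
Hosts with 1 member in list 1: the member (y axis) against the strongest gene-end peak (x axis) by fold (left, n = 635) and by recovered reads (right, n = 624), both on log scales, with each point a gene and the line at equality. Most points lie above the line by fold and 82.1% lie below it by reads.

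The mark at the end of a host was mostly at its 5′ end. The start records gave a strand for 1073 hosts, of which 932 (86.9%) were marked at the 5′ end only, 38 (3.54%) at the 3′ end only and 103 (9.60%) at both. Another protein-coding gene's end lay within 2000 bp of the marked 3′ end in 16 of the 38 and 33 of the 103. Members leaned slightly towards the marked end. In hosts marked at 1 end, 55.8% of 3816 members (54.2 to 57.4%) were nearer to that end than to the other. Taking the median member of each of those 1230 hosts, 56.4% were nearer to it, and for hosts with 1 member 53.1% of 590 (48.9 to 57.1%), an interval that includes equal shares. The interior of these genes, cut into 5 equal parts from the marked end, held 23.3%, 22.4%, 20.05%, 17.7% and 16.6% of members. Counted from the 5′ end in hosts with a strand, the shares of the 5 parts were 22.2%, 20.9%, 19.5%, 17.5% and 19.97%. Members were nearer to the 5′ than to the 3′ end in 52.9% of 3556 (51.2 to 54.5%), and deep peaks of genes not marked at an end in 51.2% of 1760 (48.8 to 53.6%), and these intervals overlapped. Members had a median distance of 45.8 kb from the 5′ end of their host (n = 3556, interquartile range 18.6 to 109 kb). Members of 1 gene share their chromatin and are not independent, so these intervals cover counting error only.

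Genes of the contractile apparatus were hosts more often than end-marked genes in general. Of 25 end-marked genes over 10000 bp of the sarcomere and Z-disc, 22 were hosts (88.0%), where 22.3% of all such genes were and 26.4% would be at the shares of their length bins. Their median was 3.5 members per host, against 2 over all hosts. After Ttn the highest ranked host was Palld, an actin scaffold of the Z-disc (chromosome 8, 61511431 to 61902707), with 16 members and best folds (the highest of its members in each list) of 10.9 and 8.30, against 11.5 and 6.55 at its end. Named after their values were seen, Actn2, the Z-disc actinin, had 28 members in 71.3 kb (best folds 10.2 and 6.18), Ldb3, a PDZ and LIM protein of the Z-disc, 18 (7.31 and 7.98) and Tpm1, tropomyosin, 11 in 27.1 kb (5.51 and 5.26). The 3 end-marked genes of that list without a member were Myh6, Pdlim3 and Lmod3.

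Scaffolds of the membrane and the intercalated disc were hosts in 17 of 23 cases (73.9%, 37.2% at their lengths). Among them was Nrap, a muscle anchoring protein at the end of myofibrils, with 13 members and best folds of 13.2 and 11.1. Its strongest end peak had 5.19 and 3.79.

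Calcium handling genes were hosts in 15 of 19 cases (78.9%, 41.9% at their lengths) and had a median of 10 members per host. Cacna1c had best folds of 16.7 and 17.6 and Itpr1, an inositol trisphosphate receptor, 10.8 and 8.99 from 2 members. Named after their values were seen, Slc8a1, the sodium-calcium exchanger, had 18 members (12.7 and 10.7), Jph2, which ties the sarcoplasmic reticulum to the cell membrane, 16 (9.73 and 6.41) and Atp2a2, the calcium pump of that reticulum, 15 in 48.7 kb (6.84 and 5.30, below its end peak at 8.02 and 6.39). Ion channel and conduction genes were hosts in 9 of 16 cases (56.2%, 27.3% at their lengths), led by Abcc9, whose protein joins the cardiac ATP-sensitive potassium channel (11.4 and 9.68), and the pacemaker channel gene Hcn2 (9.95 and 7.20). Their median was 2 members per host.

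Regulators of cardiac identity and of metabolism were hosts in equal numbers. Of 21 end-marked cardiac transcription factor genes over 10000 bp, 14 were hosts (66.7%, 40.7% at their lengths), with a median of 7 members. Myocd, the coactivator of serum response factor (chromosome 11), had 13 members with best folds of 19.3 and 13.7 against 5.47 and 5.32 at its end, and Nfib, a nuclear factor I gene, 8 with 12.4 and 16.6. Gata4 and Gata6, named after their values were seen, had 15 and 13 members, those of Gata6 in 33.1 kb. Of 21 metabolic regulators, 14 were hosts (66.7%, 34.9% at their lengths). Thra, a thyroid hormone receptor gene, had 3 members with best folds of 17.01 and 11.4, and Esrrg, an oestrogen-related receptor gene that acts on mitochondrial genes, 8 with 12.9 and 13.5. The PGC-1 coactivator genes, named after their values were seen, had 38 (Ppargc1a) and 37 (Ppargc1b) members, in 661.6 and 109.3 kb, with best folds of 11.6 and 12.2, and 11.3 and 24.1.

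Enzyme genes were hosts less uniformly. Fatty acid and glucose metabolism had 11 hosts of 27 (40.7%, 18.6% at their lengths), led by Acacb, which makes the malonyl-CoA that restrains fatty acid oxidation, with 14 members (11.004 and 10.7), and the pyruvate dehydrogenase kinase gene Pdk1 with 1 (11.3 and 7.36). Oxidative phosphorylation and the tricarboxylic acid (TCA) cycle had 5 of 21 (23.8%, 15.9% at their lengths), near the share of all end-marked genes, although 32 of the 33 genes of that list were marked at an end. With list 2 alone the shares of these lists were 69.0% and 52.4%. Among the hosts was Idh2, an isocitrate dehydrogenase gene, with 4 members and best folds of 9.34 and 3.98, against 5.002 and 4.47 at its end.

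Signalling and chromatin genes differed in direction against their length bins. Insulin and growth signalling had 12 hosts of 23 (52.2%, 38.4% at their lengths), led by Insr, the insulin receptor gene, with 12 members (14.7 and 12.9) and Akt2, a kinase downstream of it, with 2 (7.80 and 10.5). Autophagy and ubiquitin genes had 8 of 22 (36.4%, 26.2% at their lengths), led by the muscle ubiquitin ligase gene Fbxo32 with 6 members (8.29 and 14.0). Trim55, which encodes a sarcomeric protein, followed with 2 (10.4 and 7.34). Coactivators and chromatin factors had 9 of 25 (36.0%), below the 41.4% of their length bins, and 61.5% with list 2 alone. Arid1b, a subunit gene of a chromatin remodelling complex, had 13 members with best folds of 21.3 and 14.7, and the acetyltransferase gene Kat2b 2 with 12.3 and 14.5.

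The arginine methylation machinery had no host. None of 11 end-marked genes over 10000 bp, among them Carm1 itself (42.6 kb), Prmt2, Prmt3, Prmt5, Prmt7, Prmt8 and Prmt9, held a member, where 23.0% would at the shares of their length bins. At 0 of 11, the limit taken as 3 counts is 27.3%. With list 2 alone 27.3% of these genes were hosts, against 35.7% of all end-marked genes. Prmt1 is marked at an end but is 9.67 kb long, too short to hold a member, and Prmt6 was not marked. Markers of cell types other than the cardiomyocyte held no member either, but only 1 fibroblast, 1 endothelial, 1 mural, 0 immune and 2 neuronal markers were end-marked and long enough. Of the cardiomyocyte markers, 6 of 8 such genes were hosts (Ttn, Slc8a1, Myom1, Tnnt2, Mb and Myl2), and Myh6 and Ckm were not.

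**Figure D5:**
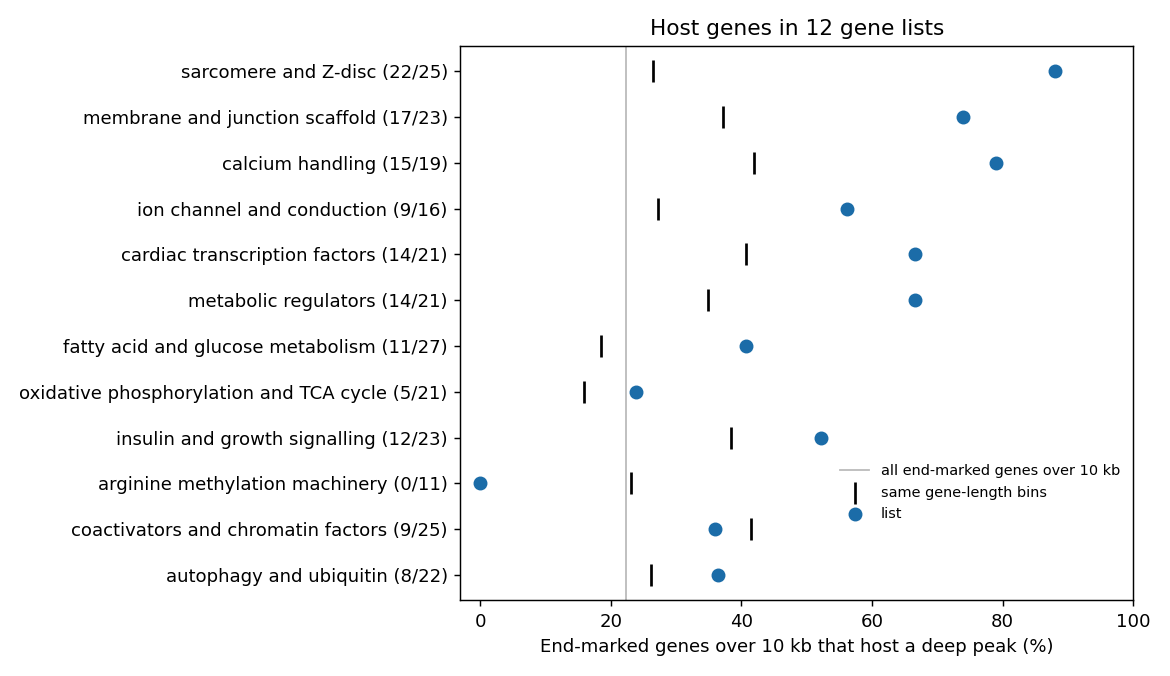
Share of end-marked genes over 10 kb that host a member (x axis, %) in 12 gene lists (y axis, hosts of eligible genes in brackets): blue points are the lists, black ticks the shares of all end-marked genes in the same length bins, and the grey line the 22.3% of all end-marked genes. Sarcomere genes stand highest at 88.0%, and the arginine methylation machinery is at 0.

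The folds of the members nearest to the limits of the rule overlapped those of the peaks just beyond them. Just inside the distance limit were members of Slc25a25, Sqstm1 and Vars2 at 5003 to 5005 bp, with list 1 folds of 4.67 to 6.67. Just outside were peaks of Trib2, Hspb8 and Limch1 at 4982 to 4994 bp, with 4.201 to 4.74. At the width limit, the widest members, in Tmcc1, Ldb3 and Plekhm2, measured 1977 to 1984 bp and had list 1 folds of 3.53 to 7.54. The narrowest peaks left out, in Itga5, Srl and Mical3, measured 2001 to 2015 bp and had 3.61 to 12.6. The width limit left out 96 deep peaks, 92 of them in genes that are hosts in any case.

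Both lists gave the members similar positions and partly different folds. The summit fell on the same base in 43.9% of members, as in 42.3% of all shared peaks, and the list 2 summit lay inside the member in 90.0%. In the remaining members the list 2 fold was measured outside the list 1 peak. Spearman's rho of the folds between lists was 0.611 across the 4722 members, which may share most of their reads between the lists, and is a description only. In list 2, 66.6% of members reached the −log10 p of 5 that every list 1 peak exceeds.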

How the data were processed

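Each sample has 1 peak list in the 10-column narrow peak layout, without a header. The fold is the deposited ratio of ChIP over background at the summit, and the p-values and q-values were deposited by the authors on a −log10 scale, both inferred from that layout and the values. The deposited score, about 10 times that value, was not used. FastQC, Bowtie2 and mm10 are named in the submitters' processing notes. No caller or control is given in the sources used here.

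Summit reads were recovered as the whole number that gives back the deposited p within 0.001 on the −log10 scale, with fold = (reads + 1) / (background + 1) and a Poisson tail. This succeeded for 99.2% of list 1 peaks, and for 98.8% of list 2 peaks after multiplying reads by 0.6183, a factor scanned on 400 list 2 peaks. On data simulated with that same formula, and with genes that do not overlap, the known reads and members were recovered in 100% of cases. Such data check the calculation only and cannot test whether the authors' values were made with that formula. Total depth is unknown. Gene spans, without exons, came from RefSeq (GRCm38.p6), so exon and intron were not told apart. Scripts used Python 3.11.15, pandas 2.3.3 and scipy 1.17.1.

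The members, the 18 gene lists and the rule for named genes were chosen with earlier results of these data known. The rule took the 12 members lowest in summed fold rank, the 8 hosts with most members, 2 hosts per list, the peaks nearest the limits, every Prmt gene and 3 hosts by fold ratio. Some genes it takes are not reported here. Of 438 list entries, 436 matched a protein-coding gene. Genes and peaks are not replicates, so no test was made.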

Additional observations from a re-analysis of the deposited data

How the results depend on the processing

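The share of members nearer to the marked end moved least, from 54.8 to 56.0% over all 7 alternatives, and accepting peaks of the lists at opposite ends changed no value beyond its interval. The lists of the sarcomere, calcium handling, membrane scaffold, ion channel, transcription factor, metabolic regulator, fatty acid and glucose, insulin, coactivator and autophagy genes, without regard to length, stayed above the share of all end-marked genes under the same setting in all 7, though the coactivator share was below that of its length bins with all shared peaks. The sarcomere share ranged from 76.2 to 92.0%. Oxidative phosphorylation stayed above in 6 (18.8 to 52.4%). The arginine methylation list ranged from 0 to 27.3%, below that share in all 7.

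With a −log10 p of at least 5 required in each list, members numbered 2635 (17.5% of shared peaks), 18.6% of long end-marked genes were hosts, the median folds were 6.45 and 5.28, and the strongest member was below the gene end in 19.5% of hosts in list 2. In the upper 50% of peaks by fold, there were 1026 members (11.3%) in 333 hosts (18%), median folds were 6.62 and 4.98, and the strongest member was below the end in 32.1% and 33.0%. With 50% reciprocal overlap, 21.2% of shared peaks were members, 19.2% of genes were hosts, and median folds were 5.73 and 4.33. Over 10000 bp from gene ends, the shares were 19.1% and 23.9%, and 17.2% and 20.6% of hosts had the strongest member below the end. With 1 list alone, members numbered 4929 (list 1) or 11331 (list 2), 23.7 or 31.0% of peaks, in 1401 or 2589 hosts (22.6 or 35.7%). List 2 alone had a median fold of 3.53, and the strongest member was below the end in 34.5%; list 1 alone gave 5.48 and 19.5%. List 2 alone gives no list 1 fold, and the reverse. The cause of these shifts was not tested. No paired analysis was possible because there is 1 group.

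Low reads limit the members: a single peak of 17 reads has a 95% Poisson interval of 9.90 to 27.2, and the floor on −log10 p removes weaker peaks.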

Other observations

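A row of small RNA genes lay under members of 1 host. Tex14, a gene of the germ cell bridge (chromosome 11, 87405013 to 87555823), had 6 members, and each overlapped a small nuclear RNA gene: Rnu1a1, Gm22068, Rnu3b1, Rnu3b2, Rnu3b3 and Rnu3b4. The Rnu3b genes encode U3, a guide of ribosomal RNA processing. Their 4 members had list 1 folds of 4.09 to 4.43 and list 2 folds of 2.96 to 3.18, while the member at Rnu1a1 had 4.26 and 9.32. The Rnu3b genes are near-identical copies, and the sources used here do not give how reads that match several copies were placed, so their folds are uncertain. A further member, in Trim7, held the transfer RNA genes n-TKctt10 and n-TAtgc9, with folds of 5.08 and 4.06.

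Members overlapped a long noncoding RNA gene in 354 cases (7.50%; 95% exact interval 6.76 to 8.29%). No such share was taken over all shared peaks, so the value is not read as particular to members. The member marks there cannot be assigned to the host or to the noncoding gene.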
